A study of Mus musculus with 12 samples.

Results

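The 10 genes described here encode the core machinery that folds and oxidises secreted proteins in the endoplasmic reticulum (ER) of mouse plasma cells: Hspa5, Hsp90b1, Calr, Canx, P4hb, Pdia3, Pdia4, Pdia6, Ero1a and Prdx4. They were chosen by symbol in the probe annotation, and each was read from the probe set that names this gene alone and has the highest mean over the 12 arrays. They are 10 of 19938 genes measured in this way, and 10 of 10 passed the filter on low values that left 14993 genes for testing.

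A plasma cell makes antibody at a high rate, and each chain enters the ER unfolded. Hspa5 (BiP) and Hsp90b1 (GRP94) hold unfolded chains, calnexin and calreticulin retain chains that carry sugar, protein disulfide isomerases form and rearrange the bonds between cysteines, and Ero1a and Prdx4 supply the oxidising power for those bonds. When unfolded chains build up, the unfolded protein response, led by Xbp1, Atf6 and Perk, raises the transcription of many of these genes, and plasma cell differentiation itself needs Xbp1.

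The study compared donor-derived plasma cells that were wild type (Zbtb32 +/+) or Zbtb32-/-, and Zbtb32 encodes a transcriptional repressor. Donor mice of the CD45.2 type, immune to NP-CGG (a carrier protein that bears the hapten NP), gave splenocytes to CD45.1 recipients, and these were challenged with the same antigen. Plasma cells that bound NP were sorted from bone marrow 7 days after the challenge: they were CD138+ and CD45.2+, and negative for CD45.1, CD11b, B220 and Ly6g. There are 6 arrays per genotype, which the series describes as biological replicates. Both groups therefore share the transfer, the challenge and the host, which still has its own immune cells. The labels used here do not give the ages of the mice, how the Zbtb32 allele was made, or how many animals gave 1 sample.

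Values are RMA expression values on the log2 scale, so a difference of 1 is a doubling of the fitted level, and only differences of the same gene between arrays are compared. The values of Zbtb32 itself overlapped, at 6.39 to 6.88 on the wild-type arrays and 6.47 to 6.73 on the Zbtb32-/- arrays; the sources used here do not say whether its probes fall within the deletion, so it does not check the labels, and genotypes are given as labelled. Of 8 plasma cell markers, 7 were measured and all 7 passed the filter; Jchain, the joining chain of polymeric antibody, averaged 13.7 ± 0.12 on wild-type arrays and 13.6 ± 0.06 on Zbtb32-/- arrays (SD, n = 6 each). Genes of other bone marrow cells were also read, although the sort removed Ly6g+ and CD11b+ cells: S100a9, a neutrophil granule gene, averaged 12.52 ± 0.83 on wild-type arrays and 12.59 ± 0.65 on Zbtb32-/- arrays (SD, n = 6 each). None of these marker genes passed between genotypes, but 12 of 12 neutrophil genes (median 0.38) and 9 of 9 erythroid genes (median 0.27) were above 0 in Zbtb32-/- minus wild type, such as Elane, neutrophil elastase, at 0.81 ± 0.79 and Camp at 0.68 ± 0.72 (SE). On the other side, 7 of 9 monocyte and macrophage genes, 6 of 7 T and NK cell genes and 7 of 9 B cell genes were below 0. In replicates 4 to 6 alone 7 of the 12 neutrophil genes were above 0 (median 0.02). There 8 of the 9 monocyte and macrophage genes (median -0.54) and 9 of the 9 B cell genes (median -0.29) were below 0. In replicates 1 to 3 alone 10 of the 12 neutrophil genes (median 0.41) were above 0. So were 7 of the 9 monocyte and macrophage genes (median 0.29) and 5 of the 9 B cell genes (median 0.08). Replicates 1 to 3 and replicates 4 to 6 of both genotypes stand apart in these data; the labels name no batch, and the split was adopted because earlier results on these arrays had shown it.

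Several of these genes are textbook targets of the unfolded protein response, whose ER stress response element is CCAAT, 9 bases of any kind and then CCACG, bound by NF-Y at the first part and by Atf6 or Xbp1 at the last. RefSeq promoters of assembly GRCm38.p6, each covering 250 bases before and 50 after the annotated start, were found for 10 of 10 genes and searched on both strands. The following stretches are shown because they hold the match in these genes; they are written 5′ to 3′ on the strand of the gene, with the match in capitals, which reads as its reverse complement where it lies on the opposite strand.
Hspa5, chr2:34772005-34772063, plus strand: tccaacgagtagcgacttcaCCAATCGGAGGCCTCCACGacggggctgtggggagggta
Hsp90b1, chr10:86705513-86705676, minus strand: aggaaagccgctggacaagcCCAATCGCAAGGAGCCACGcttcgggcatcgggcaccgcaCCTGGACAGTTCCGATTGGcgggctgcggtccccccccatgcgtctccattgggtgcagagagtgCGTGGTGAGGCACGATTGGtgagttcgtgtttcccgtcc
Calr, chr8:84847055-84847113, minus strand: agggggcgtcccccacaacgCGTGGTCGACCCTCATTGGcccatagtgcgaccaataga
Canx, chr11:50325780-50325838, minus strand: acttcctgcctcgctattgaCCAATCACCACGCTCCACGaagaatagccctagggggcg
Pdia6, chr12:17266471-17266529, plus strand: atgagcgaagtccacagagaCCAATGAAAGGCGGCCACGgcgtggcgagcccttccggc
Pdia3, chr2:121413853-121413901, plus strand: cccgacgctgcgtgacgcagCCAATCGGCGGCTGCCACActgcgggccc
Pdia4, chr6:47813582-47813640, minus strand: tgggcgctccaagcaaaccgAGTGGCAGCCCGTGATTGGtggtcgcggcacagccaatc

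An exact match lay in the promoters of 5 of the 10 genes, Hspa5, Hsp90b1, Calr, Canx and Pdia6, against 39 of 32851 promoters in the table (0.119%). Hsp90b1 held exact matches at both ends of its stretch, and the match between them has 1 letter different. Allowing 1 of the 10 fixed letters to differ added Pdia3 and Pdia4, so that 7 of the 10 genes held a match, against 494 promoters (1.5%). P4hb, Ero1a and Prdx4 held none in this window. The related element ATTGG, 1 base and CCACG was in 0 of the 10 promoters (0.0365% of all), and the Xbp1 element TGACGTGG was also in 0 of the 10 (0.676% of all). Members of this gene group are known targets of the response, so the shares describe these windows and were not tested.

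**Figure D1:**
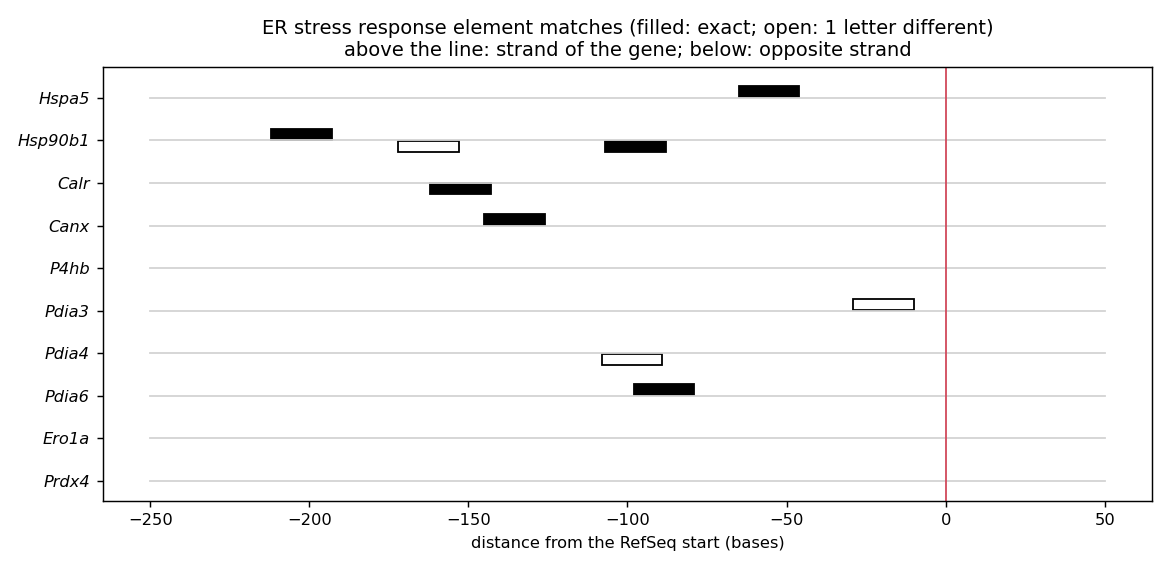
Position of ER stress response element matches in the promoters of the 10 genes, with the distance from the RefSeq start in bases on the x axis; filled boxes are exact matches and open boxes have 1 letter different, above the line on the strand of the gene and below it on the opposite strand. All matches lie before the start, and P4hb, Ero1a and Prdx4 have none.

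The first question was whether the loss of Zbtb32 altered these genes. None of the 10 passed the test between genotypes, which was limma over all 14993 genes with Benjamini-Hochberg adjustment at 0.05; 0 genes in all passed (0.0% called), and 642 had an unadjusted p under 0.05. Differences are given as Zbtb32-/- minus wild type, from the fit with genotype alone. Their SEs and intervals therefore hold the spread between replicate sets. With the set in the fit the SE was 0.073 in Hspa5 (0.121 without it), 0.06 in Prdx4 (0.12) and 0.091 in Canx (0.093). In that fit 0 genes passed by limma (959 had an unadjusted p under 0.05). The differences were above 0 in 9 of the 10 genes, with a median of 0.12, beside 52.9% of all genes above 0 and a median of 0.01. Of the 9888 genes whose mean level exceeded the 50th percentile, which include the 10, 6369 were above 0, with a median of 0.0649. When the arrays were quantile normalized again, 7 of the 10 were above 0 and the median was 0.03, and in replicates 1 to 3 alone 6 of the 10 were. The neutrophil and erythroid markers given above lay on the same side, and most monocyte, B, T and NK cell markers on the other. With the mean of the neutrophil, monocyte, erythroid, T and NK cell markers as a covariate, 9 of the 10 genes were above 0. Their median was then 0.16, and none passed. The part of other cells in these differences was not tested beyond this. In the fit with genotype alone the lowest limma adjusted p among the 10 was 0.933. In bulk samples such as these, fewer plasma cells in a sort and less RNA per plasma cell cannot be told apart.

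**Figure D2:**
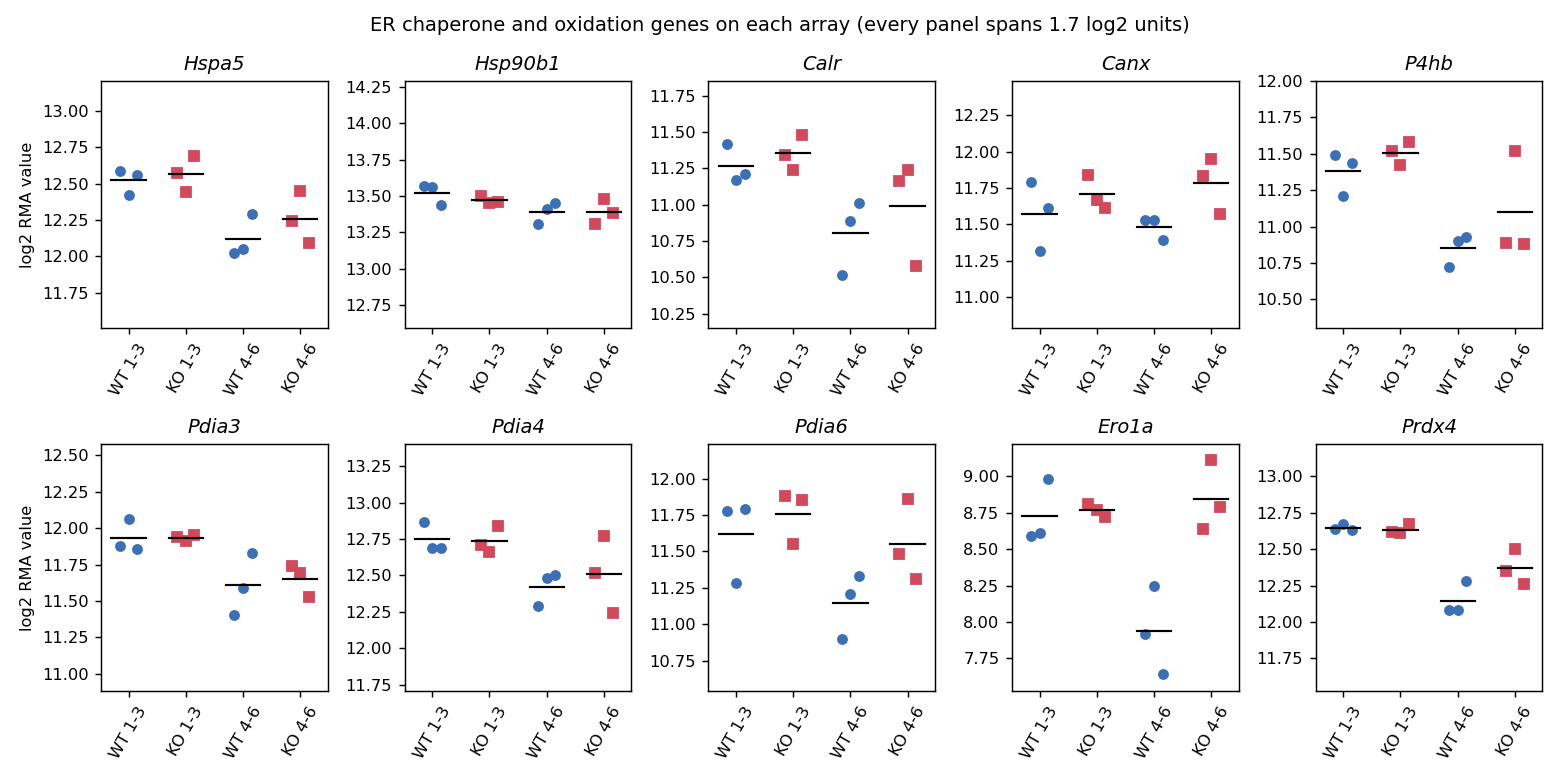
Log2 RMA value of each of the 10 genes on each of the 12 arrays, in 4 groups of 3 arrays, with circles for wild type (WT), squares for Zbtb32-/- (KO) and a line at the group mean. Every panel spans the same range; Prdx4 and Pdia3 separate replicates 1 to 3 from 4 to 6, and the 3 lowest values of Ero1a, 7.64 to 8.25, are those of wild-type replicates 4 to 6.

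Hspa5, the ER Hsp70 that also keeps the stress sensors inactive, was measured at 12.59, 12.42, 12.56, 12.02, 12.05 and 12.29 in wild-type replicates 1 to 6. In Zbtb32-/- it was 12.57, 12.44, 12.69, 12.24, 12.45 and 12.09. The genotypes overlapped over nearly their whole ranges, and wild-type replicates 4 and 5 and Zbtb32-/- replicate 6 were the lowest. The difference was 0.09 ± 0.12 (SE; 95% interval -0.17 to 0.35; limma adjusted p = 0.948).

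Hsp90b1, the ER Hsp90 that matures a small set of clients including integrins and Toll-like receptors, had the narrowest spread of the 10 genes. Its mean of 13.44 was near the highest value of any named probe set, 14.05, and flattening at that level was not tested. Its 6 wild-type values were 13.57, 13.56, 13.44, 13.31, 13.41 and 13.45, and its 6 Zbtb32-/- values were 13.5, 13.45, 13.46, 13.31, 13.48 and 13.38. All 12 lay within 0.27 of each other. It was the gene whose difference between genotypes was below 0, at -0.03 ± 0.05 (SE; 95% interval -0.13 to 0.08; limma adjusted p = 0.959).

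Calr, the soluble lectin chaperone that also buffers ER calcium, was 11.42, 11.17, 11.21, 10.52, 10.89 and 11.01 in wild type. The Zbtb32-/- arrays read 11.34, 11.24, 11.48, 11.16, 11.24 and 10.58. Wild-type replicate 4 and Zbtb32-/- replicate 6 were the lowest by some distance, and the other arrays of both genotypes overlapped. The difference was 0.14 ± 0.16 (SE; limma adjusted p = 0.944). It was 0.034 without wild-type replicate 4, 0.256 without Zbtb32-/- replicate 6, and 0.034 after renewed quantile normalization.

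Canx, the membrane-bound lectin chaperone, read 11.79, 11.32, 11.61, 11.53, 11.53 and 11.39 in wild type and 11.84, 11.67, 11.61, 11.83, 11.95 and 11.57 in Zbtb32-/-. Wild-type replicate 1 reached into the upper part of the Zbtb32-/- range and the other 5 wild-type arrays were at or below 11.61. The difference of 0.22 ± 0.09 (SE; 95% interval 0.02 to 0.42) had a limma adjusted p of 0.933. Canx and Ero1a were the 2 genes of the 10 with an unadjusted p under 0.05, both higher in Zbtb32-/-, a direction and threshold met by 425 of all genes tested (2.83%). The difference in Canx was 0.093 when the arrays were quantile normalized again.

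None of the 4 protein disulfide isomerases passed the test between genotypes. P4hb, the prototype isomerase and a subunit of collagen prolyl hydroxylase, ranged from 10.72 to 11.49 in wild type and from 10.88 to 11.58 in Zbtb32-/-, with a difference of 0.18 ± 0.17 (SE). Pdia3 (ERp57), which works on glycoproteins held by calnexin and calreticulin, ranged from 11.4 to 12.06 and from 11.53 to 11.95, with a difference of 0.02 ± 0.11 (SE). Pdia4 (ERp72) ranged from 12.29 to 12.87 and from 12.24 to 12.84, with a difference of 0.04 ± 0.11 (SE). The 2 ranges overlapped for each of these 3 genes. Pdia6 (P5), which associates with BiP, differed by 0.27 ± 0.16 (SE; 95% interval -0.06 to 0.61; limma adjusted p = 0.933). Its values were 11.78, 11.28, 11.79, 10.9, 11.21 and 11.33 in wild type and 11.88, 11.55, 11.85, 11.48, 11.86 and 11.31 in Zbtb32-/-. The 3 lowest arrays were wild-type replicates 4, 5 and 2. Only Pdia4 has another probe set of its own; that one, made from 1 accession, read 7.58 and 7.43 in wild-type replicates 4 and 5 and 8.71 to 9.54 on the other arrays.

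Prdx4, the ER peroxiredoxin that uses the peroxide made by Ero1 to oxidise further isomerases, had wild-type values of 12.64, 12.67, 12.63, 12.08, 12.08 and 12.28. Its Zbtb32-/- values were 12.62, 12.61, 12.67, 12.35, 12.5 and 12.26. Replicates 1 to 3 of both genotypes lay between 12.61 and 12.67, and all values below 12.61 were of replicates 4 to 6. The difference between genotypes was 0.11 ± 0.12 (SE; limma adjusted p = 0.937).

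Ero1a, the flavoprotein oxidase that passes electrons from the isomerases to oxygen and is also known as a hypoxia target, had the largest difference of the 10 genes and the widest range over the arrays, 1.47. The wild-type arrays read 8.59, 8.61, 8.98, 7.92, 8.25 and 7.64, and the Zbtb32-/- arrays 8.81, 8.77, 8.72, 8.64, 9.11 and 8.79. Wild-type replicates 4, 5 and 6 were the 3 lowest of the 12 arrays, while wild-type replicate 3 was above 5 of the 6 Zbtb32-/- arrays. The difference was 0.48 ± 0.20 (SE; 95% interval 0.04 to 0.91; limma adjusted p = 0.933). It was 0.339 without wild-type replicate 6, the lowest array, and 0.607 at the other end of the range from leaving out single arrays.

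The genotypes were also compared within each set of replicates. For Ero1a in replicates 1 to 3 the Zbtb32-/- mean was 8.77 ± 0.04 and the wild-type mean 8.72 ± 0.22 (SD, n = 3 each), a difference of 0.04. In replicates 4 to 6 the means were 8.85 ± 0.24 and 7.94 ± 0.31 (SD, n = 3 each), a difference of 0.91 or 1.88-fold, and every Zbtb32-/- array was above every wild-type array. Canx was the other gene of the 10 whose genotypes did not overlap in replicates 4 to 6, beside 1076 of all genes tested (7.18%). None of the 10 was separated in this direction in replicates 1 to 3. The share of all genes separated there was not counted, so the sets cannot be compared by these counts. The test of the change itself, the interaction of genotype and set, gave 0.87 ± 0.28 for Ero1a (SE; limma adjusted p = 0.998), which did not pass. That of Prdx4 was 0.24 ± 0.11 (SE; limma adjusted p = 0.998). Ero1a and Prdx4 were the 2 of the 10 with a positive interaction at an unadjusted p under 0.05, beside 371 of all genes (2.47%), and 0 genes passed after adjustment by limma (0.0% called; 579 at an unadjusted p under 0.05). The interaction was above 0 in 10 of the 10 genes, beside 52.5% of all genes. When the arrays were quantile normalized again it was above 0 in 8 of the 10. In the deposited scaling it was also above 0 in 7 of 7 plasma cell markers and 6 of 6 regulators of the unfolded protein response. Of the B cell genes and of the monocyte and macrophage genes 0 of 9 each were above 0, with medians of -0.5 and -0.73. Of the neutrophil genes 3 of 12 were above 0.

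**Figure D3:**
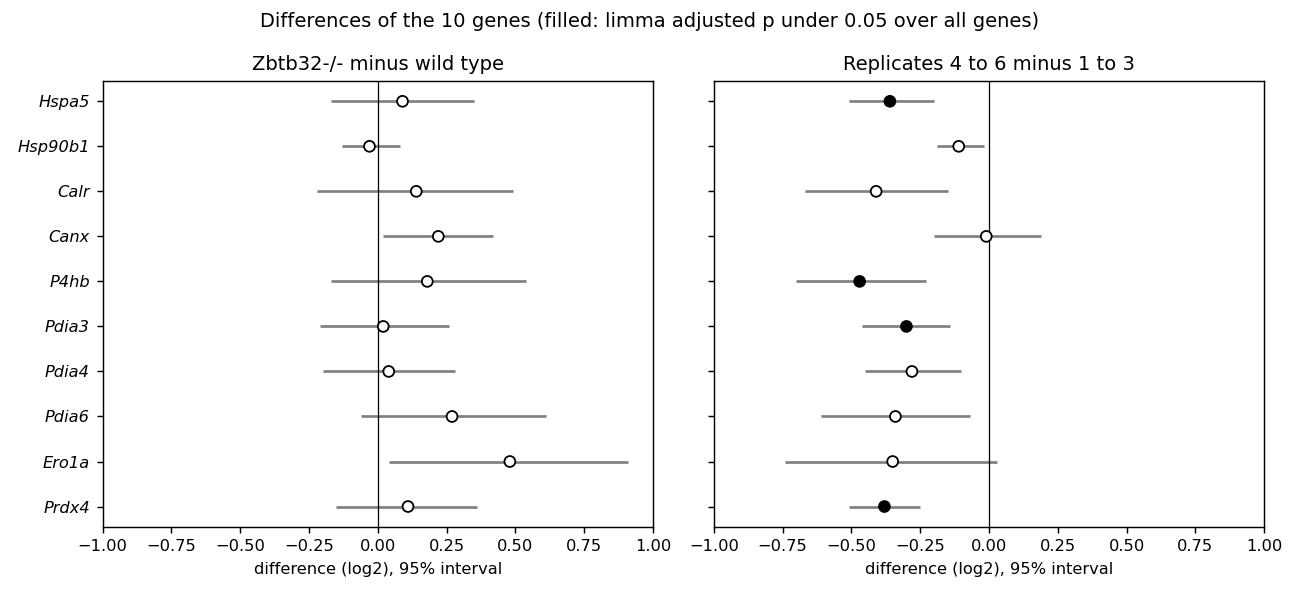
Differences of the 10 genes on the log2 scale with their 95% intervals from limma, by genotype on the left and by replicate set, with genotype in the fit, on the right; filled points passed an adjusted p of 0.05 over all genes tested. No point is filled on the left, and Hspa5, P4hb, Pdia3 and Prdx4 are filled on the right, all below 0.

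In 8 of the 10 genes, all but Canx and Ero1a, the difference between replicate sets was larger than that between genotypes. In replicates 4 to 6, 4 of the 10 genes fell relative to replicates 1 to 3: P4hb, Prdx4, Hspa5 and Pdia3. Among all genes 977 passed this test (6.52% called), 670 of them lower in replicates 4 to 6 (4.47%) and 307 higher; after renewed quantile normalization the same test called 280 lower and 305 higher, and with each array centred on its median 455 lower and 330 higher. The difference was below 0 in 10 of the 10 genes, with a median of -0.35 beside -0.06 over all genes. Of the 9888 genes whose mean level exceeded the 50th percentile, 3047 were above 0 in this comparison, and their median was -0.1274. Canx was close to 0, at -0.01 ± 0.09 (SE), and its sign turned with the scaling, to 0.138 after renewed quantile normalization and 0.006 after centring. Because the sets were adopted from earlier results, these p-values are not independent evidence of the split.

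Prdx4 fell by 0.38 on the log2 scale (SE 0.06; 95% interval -0.51 to -0.25; limma adjusted p = 0.00952), from 12.64 ± 0.03 to 12.26 ± 0.16 (SD, n = 6 each). Every array of replicates 4 to 6 was below every array of replicates 1 to 3 for Prdx4 and for Pdia3, 2 of the 10 genes, beside 429 of all genes tested (2.86%). Hspa5 fell by 0.36 (SE 0.07; limma adjusted p = 0.0208), P4hb by 0.47 (SE 0.11; adjusted p = 0.0295) and Pdia3 by 0.3 (SE 0.07; adjusted p = 0.0343). Zbtb32-/- replicate 5 stood among the high arrays for P4hb, at 11.52, and kept the sets from separating. The Prdx4 call held without any 1 of the 12 arrays, that of Hspa5 without 10 of the 12, that of P4hb without 5 and that of Pdia3 without 3.

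The 6 genes that did not pass were Calr at -0.41 ± 0.12 (SE; limma adjusted p = 0.0596), Pdia4 at -0.28 ± 0.08 (0.0565), Hsp90b1 at -0.11 ± 0.04 (0.103), Pdia6 at -0.34 ± 0.13 (0.113), Ero1a at -0.35 ± 0.18 (0.233) and Canx (0.976). Within wild type, replicates 4 to 6 were lower than 1 to 3 in 10 of 10 genes, by differences of -0.79 to -0.09. Within Zbtb32-/- they were lower in 8 of 10, with a range of -0.41 to 0.08, and the exceptions were Canx at 0.08 and Ero1a at 0.08. The 5 genes with an exact promoter match and the 5 without had medians of -0.34 and -0.35 for this difference, and 1 and 3 of them passed.

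Arrays of replicates 4 to 6 differed among themselves. Wild-type replicates 4 and 5 were among the 4 lowest arrays for 10 of the 10 genes, Zbtb32-/- replicate 6 for 8 and wild-type replicate 6 for 5. Zbtb32-/- replicates 4 and 5 were so for 3 and 1. The mean of the 10 genes was 11.86, 11.7 and 11.82 in wild-type replicates 1 to 3 and 11.27, 11.44 and 11.46 in replicates 4 to 6. In Zbtb32-/- it was 11.87, 11.77 and 11.89, then 11.62, 11.86 and 11.46. Without wild-type replicate 4 and Zbtb32-/- replicate 6, 1 of the 10 genes passed, beside 73 of all 14993 genes tested. This gene was Prdx4 at -0.337 (limma adjusted p = 0.0465), and Hspa5 at -0.29 had an adjusted p of 0.0885.

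Neutrophil and monocyte markers were higher in replicates 4 to 6, the set in which the ER genes were lower. Of all genes tested 307 rose between the sets (2.05%) and 38.8% were above 0. All 12 of 12 neutrophil genes were higher, with a median of 1.37, and 6 of them rose. The largest rise was that of Mmp8, a granule collagenase, by 2.58 ± 0.53 (SE; limma adjusted p = 0.0211). S100a9 rose by 1.05 ± 0.24 (SE; adjusted p = 0.0281), a call that held without 6 of the 12 arrays. The others were S100a8, Lcn2, Retnlg and Cxcr2. Of the monocyte and macrophage genes 9 of 9 were higher and 4 rose: Lyz2 (lysozyme) by 1.64 ± 0.43 (SE; adjusted p = 0.0425), Ccr2, Cx3cr1 and Itgam. Of the B cell genes 1 rose, Cr2, by 0.77 ± 0.18 (SE; adjusted p = 0.0288), with 6 of 9 above 0. Erythroid genes lay on the other side, with 8 of 9 below 0 and a median of -0.08 (5 of 9 after renewed quantile normalization), and 6 of 7 T and NK cell genes were above 0; none of either list passed. Among the 2 genes of highest level in each list, those that did not pass included Ngp, a neutrophil granule protein, at 1.11 ± 0.50, and Cd68 of macrophages at 0.25 ± 0.26 (SE). Of the B cell pair, Cd79b was at -0.12 ± 0.11 and Cd37 at -0.25 ± 0.13 (SE). Car1 and Ermap of erythroid cells were at 0.32 ± 0.58 and 0.0 ± 0.23, and Nkg7 and Cd3e of NK and T cells at 1.0 ± 0.46 and -0.01 ± 0.10 (SE). The mean over the neutrophil, monocyte, erythroid, T and NK cell genes ran from 6.72 to 8.12 in replicates 1 to 3 and from 7.72 to 8.88 in replicates 4 to 6, with the highest values in Zbtb32-/- replicate 6 (8.88) and wild-type replicate 4 (8.38); by genotype it ran from 6.72 to 8.38 in wild type and from 7.47 to 8.88 in Zbtb32-/-. RMA values have no true 0, so absence of a marker cannot be read from them. With this mean as a covariate 0 of the 10 genes passed by limma, beside 24 of all 14993 genes tested. Of all genes 2500 had an unadjusted p under 0.05. The set difference was then -0.306 in Prdx4 (limma adjusted p = 0.112), -0.298 in Hspa5 (0.177), -0.451 in P4hb (0.184) and -0.183 in Pdia3 (0.307). The Mmp8 call was lost without wild-type replicate 1 alone, that of Lyz2 without 9 of the 12 arrays and that of Cr2 without 6. The part of other cells in the set difference was not tested beyond this.

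Plasma cell markers were lower too. All 7 had differences below 0 in replicates 4 to 6, with a median of -0.42, and Prdm1, the regulator that drives the plasma cell fate, fell by 0.75 (SE 0.18; limma adjusted p = 0.032), a call that held without 5 of the 12 arrays. Sdc1, the CD138 used in the sort, differed by -0.42 ± 0.12 (SE; adjusted p = 0.0596). By genotype 4 of these 7 were above 0, with a median of 0.02, and none passed. In replicates 4 to 6 alone 6 of the 7 were above 0, and in replicates 1 to 3 alone 2 were. Jchain, near the top of the scale, differed by -0.06 ± 0.05 between sets (SE).

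**Figure D4:**
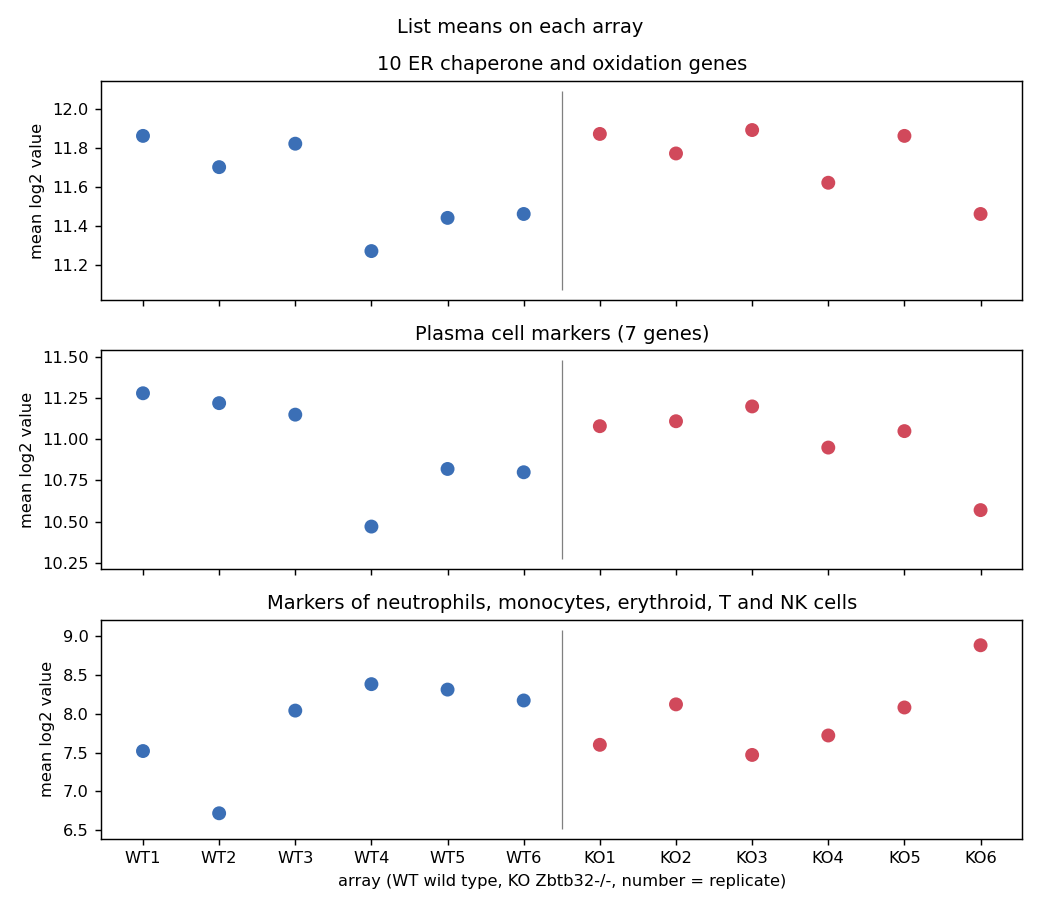
Mean log2 value on each array of the 10 ER genes (top), the plasma cell markers (middle) and the markers of neutrophils, monocytes, erythroid, T and NK cells (bottom), with wild type (WT) in blue and Zbtb32-/- (KO) in red. Wild-type replicate 4 has the lowest value in the upper panels, at 11.27 and 10.47, and Zbtb32-/- replicate 6 has the highest value in the bottom panel, at 8.88.

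The rest of the ER folding machinery was read from 6 lists of cofactors, enzymes and relatives, with 44 of 49 genes above the filter. By genotype none of the 44 passed, and 35 were above 0 (28 after renewed quantile normalization and 26 in replicates 1 to 3 alone), with a median of 0.13, beside 52.9% of all genes above 0. By replicate set 10 of the 44 fell, none rose, and 42 were below 0 (41 after renewed quantile normalization, with 6 calls), with a median of -0.34. Of all genes tested 4.47% were called lower and 61.2% were below 0. The genes whose mean level exceeded the 50th percentile, given above, leaned further to the same side in both comparisons. Without wild-type replicate 4 and Zbtb32-/- replicate 6, 0 of the 44 passed by limma and 41 were below 0. Of all genes 73 passed without that pair, and 2756 had an unadjusted p under 0.05. On leaving out single arrays the calls of Hyou1 and Fkbp2 held without any 1 of the 12, those of Sdf2 and Txndc11 without 11 of the 12 (lost without Zbtb32-/- replicate 3 and wild-type replicate 1, respectively), and those of Cnpy2, Ganab, Erp44, Mogs, Fkbp11 and Sec63 without 6, 5, 4, 3, 3 and 2; the removal of replicate 1, 3 or 4 of wild type, or of replicate 1, 3 or 6 of Zbtb32-/-, ended each of these 6.

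Of the 11 cofactors of BiP, all 11 were lower in replicates 4 to 6 and 3 fell. Hyou1, a large Hsp70 relative that exchanges nucleotide on BiP, fell by 0.91 (SE 0.17; limma adjusted p = 0.0154), from 10.21 to 9.31. Sdf2 fell by 0.66 (adjusted p = 0.0208) and Sec63, the J protein of the translocon, by 0.44 (adjusted p = 0.0447). Manf and Sdf2l1, the cofactors with the highest levels, differed by -0.3 and -0.43 without passing. Dnajb9, a J protein of the ER lumen, differed by -0.3 ± 0.13 between sets and by 0.18 ± 0.15 between genotypes (SE). By genotype all 11 cofactors were above 0, with a median of 0.18, and none passed; after renewed quantile normalization 8 of the 11 were, with a median of 0.06, and in replicates 1 to 3 alone 5 were, with a median of -0.02. Sdf2l1, with a difference of 0.23 ± 0.18 (SE), had the smallest p (limma adjusted p = 0.933).

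Of the 4 measured cofactors and clients of GRP94, Cnpy2 fell by 0.51 (SE 0.11; limma adjusted p = 0.0261) in replicates 4 to 6. Mzb1, a B-lineage partner of GRP94 in the assembly of IgM, differed by -0.33 ± 0.09 (SE; adjusted p = 0.0538), and Cnpy4 by -0.08 ± 0.16 (SE). Of the 5 enzymes of the calnexin cycle, Ganab, the catalytic subunit of glucosidase II, fell by 0.74 (SE 0.17; adjusted p = 0.0289) and Mogs, glucosidase I, by 0.56 (SE 0.15; adjusted p = 0.048). Prkcsh, the other subunit of glucosidase II, had the smallest genotype p of that list, with a difference of 0.46 ± 0.22 (SE; limma adjusted p = 0.933).

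The 12 other isomerase-family genes were all lower in replicates 4 to 6, and 2 fell. Txndc11, a thioredoxin-domain protein of the ER membrane, fell by 0.82 (SE 0.17; limma adjusted p = 0.0231), and Erp44, which retains Ero1 and Prdx4 in the ER, by 0.48 (SE 0.12; adjusted p = 0.0337). By genotype this list had no common sign, with 7 above 0 and 5 below. Txndc12 differed by 0.87 ± 0.38 and Pdia5 by -0.27 ± 0.09 (SE), both with a limma adjusted p of 0.933. The members of this list with the highest levels, Creld2 and Txndc5, differed by 0.1 ± 0.14 and 0.01 ± 0.17 between genotypes and by -0.31 ± 0.11 and -0.37 ± 0.14 between sets (SE), and neither passed. The wild-type values of Txndc12 were spread by an SD of 1.04, against 0.25 in Zbtb32-/-.

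None of the 6 other ER oxidases and peroxidases passed by genotype or by set. Ero1b, the paralogue with a like activity, had genotype means of 8.86 ± 0.38 and 8.98 ± 0.28 (SD, n = 6 each), a difference of 0.13 ± 0.19 (SE; limma adjusted p = 0.954). Its interaction of genotype and set was 0.22 and did not pass, and the contrast between the 2 paralogues was not tested. Vkorc1, which can oxidise isomerases while it recycles vitamin K, differed by 0.5 ± 0.24 between genotypes, and Qsox1, a sulfhydryl oxidase, by 0.33 ± 0.21 (SE). Vkorc1l1, a relative of Vkorc1, differed by 0.11 ± 0.16 (SE). Among 6 prolyl isomerases Fkbp2 fell by 0.49 (SE 0.08; adjusted p = 0.0107) and Fkbp11 by 0.44 (SE 0.11; adjusted p = 0.0365) in replicates 4 to 6, while Ppib, cyclophilin B, differed by -0.22 ± 0.07 (SE; adjusted p = 0.0912). The 6 had no common sign: Ppic and Fkbp9 were on the other side, at 0.39 ± 0.19 (SE; limma adjusted p = 0.208) and 0.35 ± 0.11 (SE; adjusted p = 0.0718).

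The regulators of the unfolded protein response were lower in replicates 4 to 6 in 6 of 6 genes (5 of 6 after renewed quantile normalization, with no call), and 2 fell. Xbp1 fell by 0.31 (SE 0.07; limma adjusted p = 0.0224), from 13.18 to 12.87, and Atf6 by 0.44 (SE 0.12; adjusted p = 0.0493). The Xbp1 call held without 11 of the 12 arrays, not without wild-type replicate 1, and the Atf6 call held only without Zbtb32-/- replicate 4 or 5. Atf6 had an interaction of 0.62, which did not pass. Atf4, the effector of the Perk branch, differed by -0.34 ± 0.09 between sets (SE; limma adjusted p = 0.0514) and by 0.2 ± 0.13 between genotypes (SE). By genotype the 6 were above 0, with a median of 0.16, and none passed; after renewed quantile normalization 5 were, with a median of 0.05, and in replicates 1 to 3 alone 3 were, with a median of 0.01. The arrays measure total mRNA of Xbp1 and cannot show its splicing.

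Chaperones outside the ER had a median nearer to that of all genes. Of 17 cytosolic and mitochondrial chaperones 15 were lower in replicates 4 to 6, with a median of -0.15, and Hsph1 and Cct7 fell, by 0.67 (SE 0.17; limma adjusted p = 0.0402) and 0.44 (SE 0.11; adjusted p = 0.036), calls that held without 3 and 4 of the 12 arrays. After renewed quantile normalization 8 of the 17 were lower, the median was 0.0, no chaperone of this list was called lower and 1 was called higher, Hsp90aa1 at 0.33 (limma adjusted p = 0.0356). In the deposited scaling Hspa8, the constitutive cytosolic Hsp70, differed by -0.01 ± 0.08 (SE) and Hsp90aa1 by 0.17 ± 0.08 (SE). Cct5 and Hspa4 had the smallest genotype p of this list, with differences of 0.2 ± 0.11 and 0.21 ± 0.12 (SE; limma adjusted p = 0.933 for both). Prdx1 and Prdx2, the cytosolic peroxiredoxins, differed by -0.09 ± 0.10 and -0.22 ± 0.11 between sets (SE), and neither passed. Mitochondrial Prdx3, the other measured gene of that list, differed by -0.89 ± 0.28 (SE; limma adjusted p = 0.07), more than any of the 10 ER genes. The difference between these lists and the 10 ER genes was not tested.

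**Figure D5:**
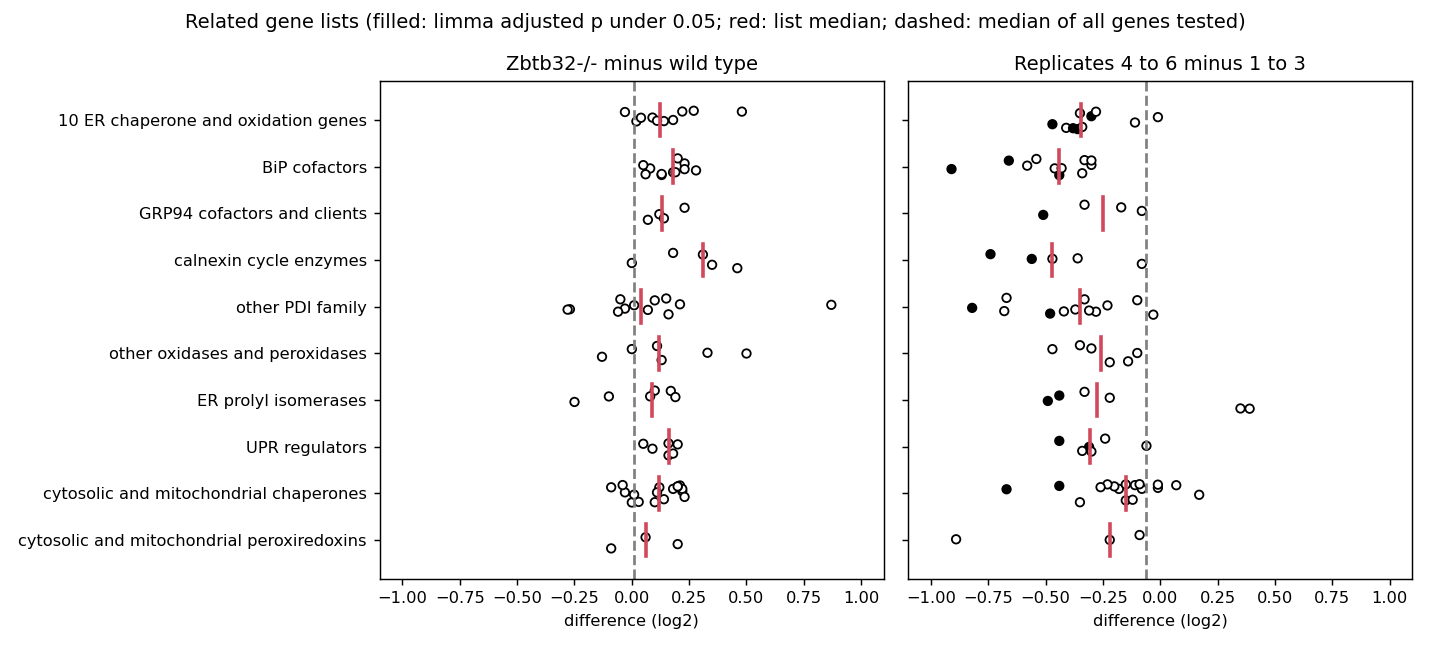
Log2 differences of the genes of each list, by genotype on the left and by replicate set on the right, with 1 point per gene, filled where limma's adjusted p was under 0.05; the red mark is the list median and the dashed line the median of all genes tested. On the left no point is filled, and on the right the ER lists have medians between -0.47 and -0.25. There the cytosolic and mitochondrial chaperones have -0.15 and the cytosolic and mitochondrial peroxiredoxins -0.22.

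Across the 12 arrays the 10 genes varied together to different degrees. Pearson's r between pairs ran from -0.03 to 0.96 over 45 pairs, with a median of 0.72. P4hb followed the mean of the other 9 genes most closely, with r = 0.95, then Hspa5 with 0.93 and Pdia6 with 0.92. Canx, with 0.46, and Ero1a, with 0.63, followed it least, and after the means of genotype and set were removed r was 0.16 for Ero1a and 0.9 for P4hb. These values describe arrays that share genotype, set and the level of other cells.

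The genes outside the 10 whose profiles were most like their standardized mean over the 12 arrays were Rexo2 (r = 0.987), Ddost (0.978), Tent5c (0.977), Copb2 (0.974), Spcs3 (0.973), Lman1 (0.971), Rcbtb2 (0.97), Trabd (0.97), Rpn2 (0.97) and Isg20 (0.963). Ddost and Rpn2 are subunits of the complex that attaches sugar to new chains, Spcs3 belongs to the signal peptidase, Lman1 is a cargo receptor for export from the ER and Copb2 is a coat protein of transport vesicles. Tent5c is a poly(A) polymerase known to act on antibody mRNA. Ddost fell by 0.56 in replicates 4 to 6 (limma adjusted p = 0.013), and its genotype difference was 0.16. Since Ddost was picked for following the mean of the 10 genes on these same arrays, which is lower in replicates 4 to 6, its fall is not separate evidence.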

How the data were processed

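Each of the 12 samples was read on 1 Affymetrix array. The authors deposited log2 values, 1 per probe set; RMA and Affymetrix Expression Console are named in the submitters' processing notes, without versions, and joint normalization of all arrays is not stated there. RMA compresses low values and hides differences in total RNA. Of 35556 probe sets, 21789 name 1 gene, 1621 several and 12146 are unnamed here; where a gene had several of the first kind, the one of highest mean stood for it. A filter removed genes whose mean did not exceed 5.487, the 25th percentile.

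The tests used limma 3.58.1 (R 4.3.3; lmFit, eBayes with a trend) with genotype alone, with genotype and replicate set, and with their interaction; p-values were adjusted over all genes tested by the Benjamini-Hochberg method. Only the fit with genotype alone was tested on simulated data, which had independent noise and no difference between replicate sets. The number of arrays limits the precision. That each array is a separate set of animals rests on the series' words.

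The 10 genes and the lists were chosen with earlier results of these data known; of 149 list entries 139 matched. Named were the 10 genes, from each related list the 2 genes with the smallest genotype p and the 2 with the highest level, the 10 genes most like the mean, and the 2 highest genes of each marker list. Genes of the lists that passed the set test, and Sdc1, Elane, Camp, Fkbp9 and Prdx3, were named after their values were seen. Promoters came from RefSeq, and motifs were searched in Python 3.11.15. Alternatives were other scalings, filters, probe rules and fit options, blocks, each set alone, a marker covariate and leaving out each array; leaving out 2 pairs of arrays was added after seeing the data.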

Additional observations from a re-analysis of the deposited data

Results flagged for a closer look

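Of 22 groups of 6 arrays tested for a single value apart from the rest, counting the 10 genes and their mean in each genotype, 2 had one, and chance gives about 1 in 20. Calr in Zbtb32-/- replicate 6 was 10.58, below the other 5 arrays of its genotype, and the gap was 0.645 of the range. Ero1a in Zbtb32-/- replicate 5 was 9.11, above the other 5, with a gap of 0.639 of the range.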

How the results depend on the processing

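Between genotypes no gene of the 10 passed under any alternative run; 1 gene of all passed in replicates 4 to 6 alone. With the replicate block 0 genes passed by limma (914 at an unadjusted p under 0.05). The numbers were not taken as pairing samples, since the correlation of same-numbered arrays ran from 0.019 to 0.468 and only wild-type replicates 1 and 6 were most like their own number. The genotype difference changed sign in Pdia3 (-0.086 after renewed quantile normalization, -0.001 in replicates 1 to 3 alone, -0.049 to 0.083 on leaving out single arrays), in Pdia4 (-0.014, -0.009 and -0.019 to 0.117 likewise) and in Prdx4 (-0.013 in replicates 1 to 3 alone).

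Between replicate sets, 977 genes passed, but 585 after renewed quantile normalization, 1579 with no filter, 24 with the marker covariate, 73 without wild-type replicate 4 and Zbtb32-/- replicate 6, and 240 to 1193 on leaving out single arrays, with the lowest number without wild-type replicate 1. Of the 10 genes 4 passed, but 2, 0 and 1 after quantile normalization, with the covariate and without that pair, and 1 to 8 on leaving out single arrays: 1 without wild-type replicate 1 or Zbtb32-/- replicate 3, 2 without any one of wild-type replicates 3, 4, 5 and Zbtb32-/- replicates 1, 6, and 8 without Zbtb32-/- replicate 5. Canx changed sign (0.138 after quantile normalization, 0.006 after centring, 0.036 without that pair, -0.052 to 0.051 on leaving out single arrays).

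For the interaction, 1 gene of all passed with array weights and without that pair, and 0 to 1 on leaving out single arrays. It changed sign in Hsp90b1 (-0.03 after quantile normalization), Pdia3 (-0.041 after quantile normalization, -0.014 with the covariate, -0.051 to 0.164 on leaving out single arrays), Calr (-0.044 to 0.306), P4hb (-0.09 to 0.228) and Pdia4 (-0.033 to 0.233). The causes of these changes were not tested. Precision is limited by 6 arrays per genotype, and protein, Xbp1 splicing and redox state were not measured.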
